A study of Mus musculus with 96 samples.

Results

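The mouse mitochondrial genome carries 37 genes, and all 37 were in the deposited expression table of 54532 genes, found as the rows whose symbol starts with mt-. They comprised 13 genes for respiratory-chain proteins, 2 for ribosomal RNAs and 22 for transfer RNAs. Their transcripts were followed through 14 microdissected renal tubule segments and the glomerulus of untreated male C57BL/6 mice, 6 to 8 weeks old, on normal chow. The 93 samples were pieces of tubule or glomeruli from 53 mice, and each mouse contributed to 1 group. Pieces of 1 mouse were averaged first, so n counts mice: 3 to 5 mice per group. In order along the nephron the groups were the glomerulus (GL), the proximal tubule from its initial convoluted piece (PTS1) through the straight part in the medullary rays (PTS2) to its end in the outer stripe (PTS3), the short descending limb (DTL1), the long descending limb in the outer (DTL2) and inner medulla (DTL3), the thin ascending limb (ATL), the thick ascending limb in medulla (MTAL) and cortex (CTAL), the distal convoluted tubule, abbreviated DCT, then the connecting tubule, CNT, and 3 levels of collecting duct, namely cortical CCD, OMCD from the outer medulla and IMCD from the inner medulla. Values were in TPM, a relative transcript abundance scaled for transcript length, so levels can be set side by side between genes.

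The mitochondrial genome is a small circle transcribed from both strands into long precursors. Most transfer RNA genes lie between the other genes, and their excision releases the ribosomal and messenger RNAs, most of which receive a short A tail. The encoded proteins are core subunits of complexes I, III, IV and V, which are completed by many subunits from nuclear genes. In the kidney, proximal tubules and thick ascending limbs are known for dense mitochondria that power sodium transport, whereas thin limbs have few.

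Of the 37 genes, 9 were above 0 in all samples and 28 were listed at exactly 0 in all of them. The 9 were the ribosomal RNA genes mt-Rnr1 and mt-Rnr2, the complex I genes mt-Nd1, mt-Nd2, mt-Nd4, mt-Nd5 and mt-Nd6, the cytochrome b gene mt-Cytb and mt-Co1, which encodes the catalytic subunit of cytochrome c oxidase. Listed at 0 were all 22 transfer RNAs and 6 protein genes: mt-Co2, mt-Co3, mt-Atp6, mt-Atp8, mt-Nd3 and mt-Nd4l. These genes serve every respiring cell, so the 0 is a value of the table and is not read as absence of the RNA. The share of transfer RNAs and of the complex V genes is therefore listed at 0 in each of the 53 mice, and every share given below refers to the 9 genes with values.

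Of the 6 protein genes listed at 0, 5 stood apart from the other members in their sequence. Every stretch of 50 bases in the transcripts was searched in the transcripts of all other genes of the GENCODE M21 annotation (mouse build GRCm38), which holds 54409 of the table's identifiers. In mt-Co2, 100% of these stretches also lie in other genes, in mt-Co3 99.9%, in mt-Atp6 99.5%, in mt-Nd4l 98.8% and in mt-Nd3 98%. Among the members above 0 the share was 62.2% for mt-Nd4, 51.1% for mt-Co1, 8.19% for mt-Nd2, 7.61% for mt-Nd5 and 1.04% for mt-Rnr2, and it was 0 for mt-Cytb, mt-Nd1, mt-Nd6 and mt-Rnr1. Among the protein genes listed at 0 the exception was mt-Atp8, which is 204 bases long and shares no such stretch. The 22 transfer RNAs, also listed at 0, share none either. Because reads from the shared stretches of mt-Nd4 and mt-Co1 can be split or dropped, the levels of these genes are uncertain.

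**Figure D1:**
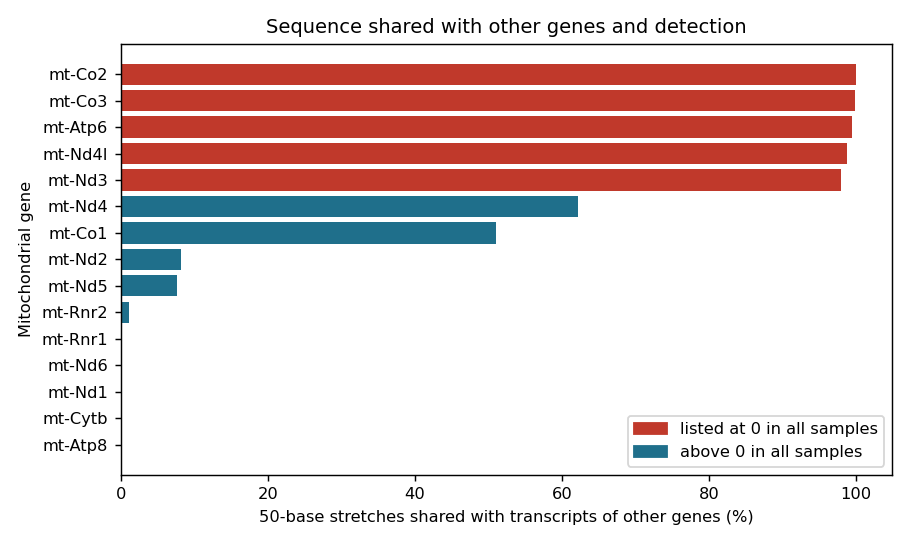
Share of 50-base stretches (%, horizontal axis) of each protein or ribosomal RNA gene of the mitochondrial genome that also occurs in transcripts of other genes; red bars mark genes listed at 0 in all samples. The genes with 98% or more were all listed at 0, those with 62.2% or less were above 0, and mt-Atp8 was at 0 without shared stretches.

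The shared stretches lie mostly in a row of unprocessed pseudogenes on chromosome 1, minus strand, a nuclear copy of part of the mitochondrial genome. It runs from Gm28439 (chr1:24611535-24612410), which matches mt-Nd4, to Gm29216 (chr1:24615706-24616197), which matches mt-Co1. The pseudogene Gm28661 (chr1:24614885-24615565) equals mt-Co2 (chrM:7013-7696, plus strand) in all 681 aligned bases, and Gm28438 (chr1:24612775-24613119) differs from mt-Nd3 (chrM:9459-9806, plus strand) by 1 substitution in 345, T3C, counted from the first base of the mitochondrial gene. Their first 60 bases, from GENCODE M21, show how little separates the pairs; the capitals mark the base that differs.
mt-Co2: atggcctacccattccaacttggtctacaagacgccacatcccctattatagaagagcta
Gm28661: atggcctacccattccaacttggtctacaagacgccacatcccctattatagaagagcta
mt-Nd3: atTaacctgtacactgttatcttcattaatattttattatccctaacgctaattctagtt
Gm28438: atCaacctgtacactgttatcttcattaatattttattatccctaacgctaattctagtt

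Gm28661, Gm28437, Gm10925, Gm10222 and Gm28439, the nuclear copies of mt-Co2, mt-Co3, mt-Atp6, mt-Nd4l and mt-Nd4, were themselves listed at 0 in all samples, and Gm28438 had a median of 1.3 TPM. Across the table, 66.4% of 2280 genes of 200 to 2000 bases with at least 95% of their stretches in other genes were listed at 0, against 2.19% of 15997 genes of that length with under 5%. Length went with it too: 99.8% of 1026 genes whose longest transcript was at most 75 bases were listed at 0. The mitochondrial transfer RNAs, 59 to 75 bases long, fall in this length class; the shortest, mt-Ts2 (chrM:11613-11671, plus strand) and a serine transfer RNA, is shown whole as an example of these members.
mt-Ts2: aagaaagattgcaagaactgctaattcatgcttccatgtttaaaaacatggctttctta

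The ends of the detected messenger RNAs differ in a way that belongs to this genome. The annotated genes mt-Cytb (chrM:14145-15288) and mt-Nd4 (chrM:10167-11544) stop at a lone T, which the added A tail completes to a stop codon, whereas mt-Nd1 (chrM:2751-3707) and mt-Co1 (chrM:5328-6872) carry a stop codon of their own. The last 30 bases of each are shown with the incomplete or complete stop in capitals; all 4 genes lie on the plus strand.
mt-Cytb: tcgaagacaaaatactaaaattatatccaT
mt-Nd4: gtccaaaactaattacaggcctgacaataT
mt-Nd1: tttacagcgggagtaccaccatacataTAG
mt-Co1: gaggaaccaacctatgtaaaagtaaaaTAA

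Before the results, the samples as a whole were checked by markers of the segments. In 11 of the 15 groups at least 1 of the markers checked for that segment was higher on average than in any other group. In the other 4 groups (DTL2, MTAL, CNT and CCD) a marker was second highest. Not every marker of the 11 groups ranked first. In PTS3 Akr1c18 did, while Slc7a13 ranked 2 and Slc5a1 ranked 4 among the 15 group means. In OMCD Aqp2 ranked 2, and in IMCD Fxyd4 ranked 3. Column totals lay between 999998.6 and 1000190.3 TPM, and read depth is unknown. Genes for odorant and vomeronasal receptors, which kidney cells are not known to use widely, summed to 1185 to 4286 TPM in GL, DTL1 and DTL3, to 893 to 1117 in DTL2 and to 395 to 852 in OMCD, to 159 to 297 in PTS1 and to 68.6 to 233 in IMCD. In CCD, CNT, DCT, CTAL, MTAL, PTS3 and PTS2 they summed to at most 53 TPM. The ATL mice split on this sum: it was 114 TPM in mouse 2, 61 in mouse 3, 2646 in mouse 4 and 2294 in mouse 6. Mice 2 and 3 had 13949 and 13532 genes at 1 TPM or more, whereas the pair with the higher receptor sum had 23465 and 24647, so the members' comparisons of ATL with DTL1, DTL3 and MTAL are given with and without that pair; counts over nuclear gene lists use all 4 mice. The part of these differences in the results was not tested.

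The mitochondrial share of all TPM differed widely along the nephron. It was highest in PTS3, at 10.3% ± 1.96 (SD, n = 3), followed by MTAL at 7.31% ± 1.72 (n = 3) and PTS1 at 7.09% ± 1.35 (n = 3). DCT, at 4.93% ± 0.229 (n = 3), and CTAL, at 4.4% ± 0.344 (n = 5), came next. The share was lowest in GL, at 0.804% ± 0.124 (n = 3), and it was low in the thin limbs DTL3 (1.03% ± 0.107, n = 3), DTL1 (1.18% ± 0.259, n = 3) and ATL (1.49% ± 0.933, n = 4; 0.867% in mice 2 and 3 alone). Differences between groups held 93.7% of the variance among the 53 mice (permutation test over the groups, 100000 permutations, p = 1e-05, the smallest they can give; adjusted over 6 such shares, 1e-05). In a tubule sample, fewer mitochondria-rich cells and less mitochondrial RNA per cell cannot be told apart, and a share also moves with everything else in the sample.

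**Figure D2:**
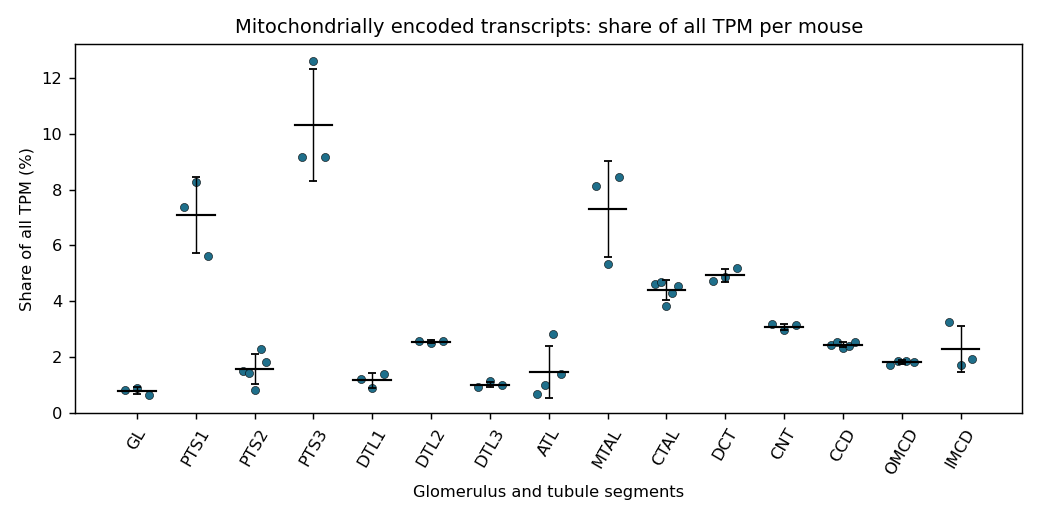
Mitochondrial share of all TPM (%, vertical axis) in each of the 53 mice, by group from glomerulus to inner medullary collecting duct; points are mice, horizontal lines means and bars SD. PTS2, with mice between 0.841% and 2.29%, sits far below PTS1 and PTS3 on either side of it.

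In the order of the means, the mice of PTS3 did not overlap those of MTAL, while MTAL and PTS1 overlapped. PTS1, DCT, CTAL, CNT and DTL2 followed without overlap between neighbours in that order. From DTL2 down to DTL3 (through CCD, IMCD, OMCD, PTS2, ATL and DTL1) each group overlapped the next, and GL lay below all mice of DTL3. Groups further apart in the order could still overlap. The GL mice, at 0.665% to 0.9%, overlapped ATL (mouse 2, 0.708%) and PTS2 (mouse 4, 0.841%). IMCD mouse 1, at 3.26%, lay above the highest CNT mouse, at 3.18%.

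The proximal tubule did not change steadily along its length. The share was 7.39%, 8.27% and 5.62% in the 3 PTS1 mice, between 0.841% and 2.29% in the 5 PTS2 mice (median 1.51%), and 9.17%, 12.6% and 9.15% in the 3 PTS3 mice. The PTS2 mice overlapped neither neighbour. The difference was 5.51 percentage points between PTS1 and PTS2 and -8.71 between PTS2 and PTS3 (exact two-sided permutation tests, each p = 0.0179, the smallest possible for 3 against 5 mice; adjusted over 15 neighbouring pairs, 0.0536 each). None of the 15 pairs passed 0.05 after adjustment in this test, the lowest adjusted value being 0.0536, and comparisons of 3 against 3 mice cannot go below 0.1.

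The same dip was seen gene by gene. A limma fit of log2(TPM + 1) over all 33793 genes past a filter of 1 TPM in at least 3 mice, with calls at an adjusted p under 0.05 and a difference of at least 1 on the log2 scale, called all 9 members higher in PTS1 than in PTS2, where 4.46% of all genes were called higher in PTS1. It also called all 9 higher in PTS3 than in PTS2, against 0.755% of all genes. The median difference of the 9 was 2.37 for PTS1 minus PTS2 and -2.70 for PTS2 minus PTS3, while the median of all genes was 0.15 and 0.00. Each of these calls held under all 63 alternatives, most of which left out a mouse of another group and could not change the difference. The 2 thick limb markers summed to 0.725 to 0.92 TPM in PTS1, 8.95 to 18.4 in PTS2 and 0 to 1 in PTS3, so PTS2 lay apart from its neighbours in these too, at levels far below the 21433 to 29586 TPM of MTAL; the endothelial markers, at 26.9 to 71.3, 39.4 to 104 and 62.1 to 132, overlapped between neighbours. The part of these markers in the dip was not tested.

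mt-Cytb, the cytochrome b of complex III, had the highest mean level of the protein genes over the groups, 10265 TPM. Its values were 18201, 19556 and 14348 TPM in PTS1, 1917 to 6125 in PTS2 (median 4073) and 25917, 36121 and 24282 in PTS3. The PTS2 mice lay below all others of the proximal tubule. The log2 difference was 2.17 ± 0.24 (SE) for PTS1 minus PTS2 (limma, adjusted p = 5.86e-10) and -2.88 ± 0.24 for PTS2 minus PTS3 (adjusted p = 9.96e-13).

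mt-Nd1, a membrane subunit of complex I, had the largest range between group means, from 1419 TPM in GL to 33049 TPM in PTS3, 23.3-fold. It measured 15722, 18463 and 11265 TPM in the PTS1 mice, 2568 to 6528 in PTS2 (median 4444) and 28857, 39712 and 30579 in PTS3. Here PTS3 exceeded PTS1 without overlap. mt-Nd2, another complex I subunit, had the next largest range, 14.1-fold, from 567 TPM in GL to 8026 TPM in PTS3. Its levels of 6660, 8480 and 5334 TPM in PTS1 overlapped the 6780, 9838 and 7459 TPM of PTS3, and the 5 PTS2 mice, at 561 to 1512 TPM (median 975), lay below both.

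The nuclear genes for the same complexes did not share the dip to that extent. The 77 nuclear subunit genes of complexes I to V that were listed were summed as a share of the TPM without the mitochondrial genes. This nuclear subunit share was 11.4% ± 0.371 in PTS1, 7.45% ± 0.195 in PTS2 and 8.81% ± 0.719 in PTS3. Between PTS1 and PTS2, 14 of the 77 were called higher in PTS1 (4.46% of all genes were) and none higher in PTS2 (5.1%), with a median difference of 0.54 against 0.15 for all genes. Between PTS2 and PTS3, 2 were called, both higher in PTS2 (3.94% of all genes were), with a median of -0.16. The mitochondrially encoded share of all TPM divided by this nuclear subunit share was 0.62 ± 0.108 in PTS1, 0.212 ± 0.0728 in PTS2 and 1.17 ± 0.197 in PTS3. The mice ran from 0.497 to 0.698, from 0.116 to 0.312 and from 0.982 to 1.37 in these groups, so this quotient did not overlap between them either; it was not tested.

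**Figure D3:**
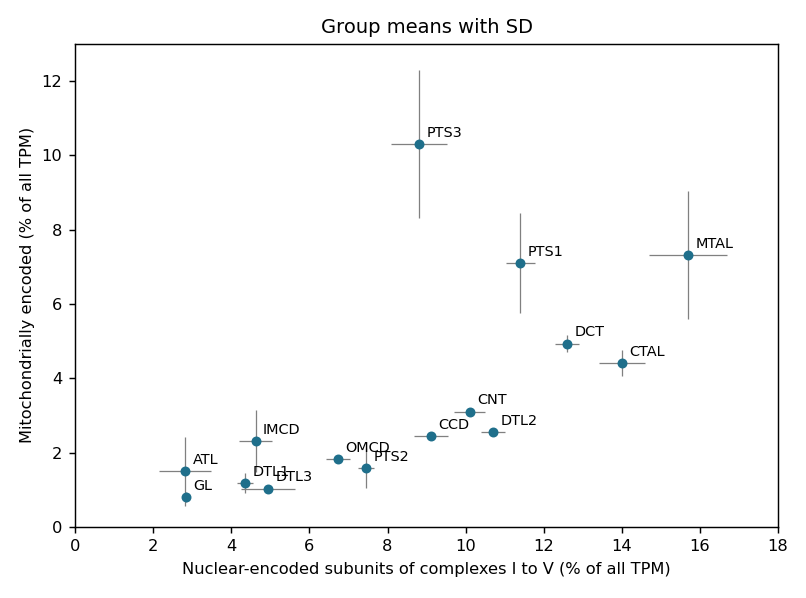
Mitochondrially encoded share of all TPM (%, vertical axis) against the share of 77 nuclear genes for subunits of complexes I to V (%, horizontal axis). Points are means of the 15 groups, bars SD over mice. The nuclear share is of the TPM without the mitochondrial genes, although the axis label names all TPM. PTS3 combines the highest mitochondrial share with 8.81% nuclear subunits, and PTS2 lies low at 7.45%.

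Over the 15 group means, the mitochondrial and the nuclear subunit share had a Pearson correlation of 0.65 and a Spearman correlation of 0.82. The former is a share of all TPM and the latter of the TPM without the mitochondrial genes. Both come from values scaled to a fixed total, so the correlations are given only as a description. The nuclear subunit share was highest in MTAL (15.7% ± 0.995) and CTAL (14% ± 0.592), where the quotient was 0.465 ± 0.101 and 0.316 ± 0.0298. Among the thin limbs DTL2 had the highest nuclear subunit share, 10.7% ± 0.297, while its quotient of 0.238 ± 0.011 lay between those of DTL3 (0.213 ± 0.0503) and DTL1 (0.27 ± 0.0486). In ATL the quotient was 0.626 ± 0.571, from 0.217 to 1.46 over its 4 mice.

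The 2 ribosomal RNAs, the small-subunit 12S RNA (mt-Rnr1, chrM:70-1024) and the large-subunit 16S RNA (mt-Rnr2, chrM:1094-2675), moved in the same direction as the messenger RNAs at the steps where all 9 members were called, but their part of the mitochondrial total differed between segments. Their share of mitochondrial TPM was 26.6% ± 4.41 in DTL1 (n = 3), 17.5% ± 2.37 in GL (n = 3) and 15.1% ± 0.274 in PTS1 (n = 3), but 5.2% ± 0.152 in PTS3 (n = 3), 4.43% ± 0.336 in MTAL (n = 3), 4.4% ± 0.307 in DCT (n = 3) and 3.91% ± 0.629 in CTAL (n = 5). Groups held 92.7% of the variance (permutation test, p = 1e-05, the smallest possible). The libraries were made from polyadenylated RNA, per the labels, so these values describe ribosomal RNA captured in that way and not its whole amount.

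**Figure D4:**
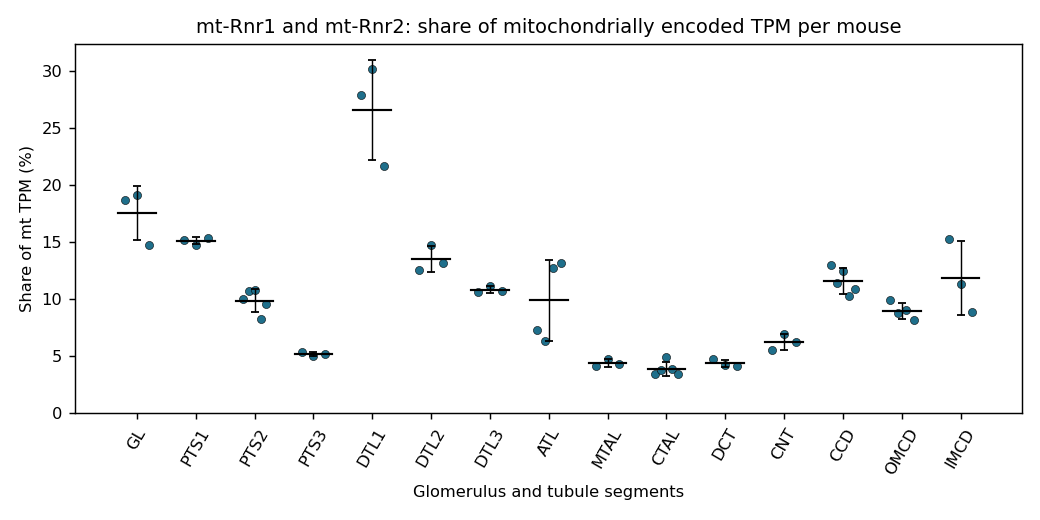
Share of mt-Rnr1 and mt-Rnr2 in mitochondrial TPM (%, vertical axis) in each of the 53 mice, by group; points are mice, lines means, bars SD. The 3 PTS1 mice lie between 14.8% and 15.4%, the 5 PTS2 mice between 8.26% and 10.8% and the 3 PTS3 mice between 5.04% and 5.34%.

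Along the proximal tubule the ribosomal share stepped down with no overlap: 15.2%, 14.8% and 15.4% in PTS1, 8.26% to 10.8% in PTS2 (median 10%), and 5.34%, 5.04% and 5.21% in PTS3. The exact two-sided permutation tests of both steps gave p = 0.0179, the smallest possible, and 0.067 after adjustment over the 15 neighbouring pairs, none of which passed 0.05 for this share. Of the 7 messenger RNAs with values, 6 had their highest group mean in PTS3 and mt-Nd5 in PTS1, and both ribosomal RNAs were highest in PTS1. mt-Rnr2 measured 9521, 10302 and 7466 TPM in PTS1, 745 to 1634 TPM in PTS2 (median 1302), and 4155, 5362 and 3881 TPM in PTS3. mt-Rnr1 measured 1715, 1965 and 1182 TPM in PTS1, 160 to 294 TPM in PTS2 (median 255), and 739, 962 and 889 TPM in PTS3. For both genes the 3 segments did not overlap. The step from PTS2 to PTS3 was -1.84 ± 0.32 for mt-Rnr2 and -1.82 ± 0.37 for mt-Rnr1 on the log2 scale (limma, adjusted p = 2.16e-05 and 0.0003), against -2.60 to -3.07 for the 7 messenger RNAs.

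From PTS3 into the descending limbs, the 7 messenger RNAs fell and neither ribosomal RNA was called. All 7 protein genes were called higher in PTS3 than in DTL1, where 3.75% of all genes were called higher in PTS3, and likewise against DTL2 (3.85% of all genes). mt-Nd1 fell from the values given to 1998, 1417 and 2543 TPM in DTL1, a difference of 4.08 ± 0.27 (limma, adjusted p = 4.93e-17). mt-Rnr2 was at 2936, 2358 and 2579 TPM in DTL1 and at 2824, 3049 and 2931 TPM in DTL2, below each PTS3 mouse; the differences of 0.75 ± 0.35 and 0.59 ± 0.35 did not reach the size of 1. These comparisons had a shifted background: the median of all genes was -1.33 for PTS3 minus DTL1 and -0.71 for PTS3 minus DTL2, and receptor genes summed to 2689 to 4286 TPM in DTL1. Markers of other cells moved with the fall: 5 endothelial markers summed to 62.1 to 132 TPM in PTS3, 2764 to 3652 in DTL1 and 1018 to 1871 in DTL2, and 2 thick limb markers to 0 to 1 TPM in PTS3, 81 to 394 in DTL1 and 19.2 to 24.3 in DTL2. Their part in the result was not tested. After quantile normalization only 4 members were called against DTL2; after median ratio rescaling all 9 were called in both comparisons.

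Within the long descending limb, 6 members were called higher in DTL2 than in DTL3 (3.5% of all genes were called higher in DTL2): both ribosomal RNAs, mt-Nd1, mt-Nd2, mt-Nd4 and mt-Cytb. After quantile normalization the difference of mt-Cytb was 0.88, under the size required, and its call was lost. mt-Nd1 was at 6846, 6320 and 6550 TPM in DTL2 and at 1859, 1900 and 1875 TPM in DTL3, with no overlap and a difference of 1.79 ± 0.27 (limma, adjusted p = 2.30e-06). Among the nuclear subunit genes, 45 of 77 were called higher in DTL2 and none in DTL3, with a median of 1.09. Markers of other cells differed as well: the leukocyte markers summed to 104 to 136 TPM in DTL2 and 11.2 to 16.5 in DTL3, the thick limb markers to 19.2 to 24.3 and 188 to 330, and the proximal markers to 7.28 to 73.4 and 2.2 to 5.2. Their part in the result was not tested.

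The thin ascending limb depended on which mice were counted. The mitochondrial share was 0.708% in mouse 2, 1.03% in mouse 3, 2.82% in mouse 4 and 1.41% in mouse 6, and the ribosomal share was 7.32%, 6.35%, 12.7% and 13.2% in the same order. The latter pair had higher values of both, along with the higher receptor sums given above; the part of these sums was not tested. No member was called between DTL3 and ATL, where 14.6% of all genes were called by limma in either direction. At an unadjusted p under 0.05 there was 1 member, mt-Nd1. Its difference of -0.85 (limma, adjusted p = 0.00888) was under the size required. With ATL mice 2 and 3 alone, 3 members were called. Between DTL1 and ATL, mt-Rnr1 and mt-Rnr2 were called higher in DTL1 (31.7% of all genes were), and 5 members with mice 2 and 3 alone; without ATL mouse 2 or without mouse 3 the difference of mt-Rnr2 was 0.87 or 0.97, under the size required. The mean share of ATL was above those of DTL1 and DTL3 with all 4 mice and below them with mice 2 and 3 alone, and these groups overlapped with all 4. Endothelial markers summed to 2764 to 3652 TPM in DTL1, 633 to 1589 in DTL3 and 149 to 239 in ATL, proximal markers to 145 to 326, 2.2 to 5.2 and 0 to 9.92, and thick limb markers to 81 to 394, 188 to 330 and 11.9 to 37.4. Their part in the result was not tested.

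From ATL to MTAL all 9 members rose (5.43% of all genes were called higher in MTAL), with a median difference of -2.41 for ATL minus MTAL against 0.48 for all genes. The leukocyte markers summed to 5.95 to 275 TPM in ATL and 310 to 552 in MTAL, and the endothelial markers to 149 to 239 and 152 to 327; their part in the result was not tested. mt-Cytb was at 2239, 3080, 7434 and 3611 TPM in ATL and at 29153, 18244 and 28847 TPM in MTAL, with no overlap and a difference of -2.75 ± 0.25 (limma, adjusted p = 1.62e-12). All 9 were also called with ATL mice 2 and 3 alone, where the difference of mt-Cytb was -3.24. The ribosomal RNAs were less firm: mt-Rnr1 measured 50, 73.7, 495 and 247 TPM in ATL and 308, 291 and 384 TPM in MTAL, which overlap, and its call (-1.15 ± 0.39, adjusted p = 0.0144) was lost without ATL mouse 2 (-0.64), without ATL mouse 3 (-0.82) or without MTAL mouse 3 (-1.03, adjusted p = 0.0621). Without ATL mouse 2 the difference of mt-Rnr2 was -0.99. After quantile normalization, mt-Nd6 and both ribosomal RNAs lost their calls, leaving 6. Of the nuclear subunit genes, 76 of 77 were called higher in MTAL.

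The glomerulus was at the other end. All 9 members were called lower in GL than in PTS1, where 4.8% of all genes were called higher in PTS1, with a median difference of -3.15 against 0.96 for all genes. mt-Cytb was at 2161, 2240 and 1851 TPM in GL against 14348 or more in PTS1, a log2 difference of -3.05 ± 0.27 (limma, adjusted p = 1.86e-13). GL values are deposited with 1 decimal and tubule values with 2. In GL, 4 markers of smooth muscle and fibroblast-like cells (Pdgfrb, Col1a1, Col3a1 and Acta2) summed to 380 to 556 TPM, 5 endothelial markers to 2993 to 3058, 5 leukocyte markers to 499 to 743 and 4 erythroid markers to 187 to 545 TPM, while 5 proximal tubule markers summed to 9.05 to 15.8 TPM. In PTS1 the same lists, in that order, summed to 0.87 to 1.95, 26.9 to 71.3, 32.8 to 59.7, 0 and 2829 to 3548 TPM, and their part in the result was not tested.

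From the thick limb to the medullary collecting duct the gene values changed in small steps. Between MTAL and CTAL 1 member, mt-Nd2, was called higher in MTAL (0.589% of all genes were). It measured 4449, 3034 and 5229 TPM in MTAL and 1830 to 2178 TPM in CTAL (median 2102), with no overlap and a difference of 1.01 ± 0.29 (limma, adjusted p = 0.0208), just past the size required; the call was lost without MTAL mouse 1 (0.95), MTAL mouse 3 (0.84) or CTAL mouse 3 (0.96), and 2 members were called without MTAL mouse 2. No member was called between CTAL and DCT, DCT and CNT, CNT and CCD or CCD and OMCD, where 4.35%, 5.22%, 1.12% and 12.1% of all genes were called by limma in either direction. At an unadjusted p under 0.05 the members numbered 0, 5, 0 and 3. For DCT minus CNT, mt-Co1 (0.85, limma, adjusted p = 0.00698) and mt-Nd4 (0.81, adjusted p = 0.0463) missed only the size required. For CCD minus OMCD the same held for mt-Rnr2 (0.86, limma, adjusted p = 0.0237). After median ratio rescaling, 3 members were called between DCT and CNT. The share of all TPM still stepped down from DCT (4.73% to 5.18%) to CNT (2.98% to 3.18%), CCD (2.35% to 2.54%) and OMCD (1.72% to 1.87%) with no overlap between neighbours. The ribosomal share rose in value from DCT (4.17% to 4.75%) to CNT (5.51% to 6.97%) and CCD (10.3% to 13%) and was lower again in OMCD (8.21% to 9.9%), with no overlap between neighbours. The 3 markers of intercalated cells, a second cell type of these segments, summed to 527 to 579 TPM in DCT, 3552 to 4168 in CNT, 2637 to 3678 in CCD and 1754 to 2413 in OMCD. The 2 thick limb markers summed to 1379 to 2245, 109 to 188, 15 to 41.1 and 0.655 to 5.97 TPM in the same order, and the endothelial markers to 154 to 384, 254 to 283, 123 to 211 and 364 to 486. The part of these markers in the steps was not tested.

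In the inner medullary collecting duct 1 mouse lay above the others. The share of all TPM was 3.26%, 1.74% and 1.93% in the 3 IMCD mice, and mt-Rnr1 was at 1277, 522 and 322 TPM, against 238 to 266 TPM in the 4 OMCD mice. mt-Rnr1 was called higher in IMCD (3.4% of all genes were), by 1.11 on the log2 scale, ± 0.39 (limma, adjusted p = 0.0263). Without IMCD mouse 1 the difference of OMCD minus IMCD was -0.56 (adjusted p = 0.35), and the call was lost. The 3 intercalated markers summed to 1754 to 2413 TPM in OMCD and 0.137 to 3.12 in IMCD, 5 leukocyte markers to 99.5 to 463 and 4.78 to 5.04, and 5 endothelial markers to 364 to 486 and 21 to 302; their part in the result was not tested. The pieces of that mouse also differed most among all 36 mice with several pieces, with a highest share 2.3 times the lowest, where the median over mice was 1.07.

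**Figure D5:**
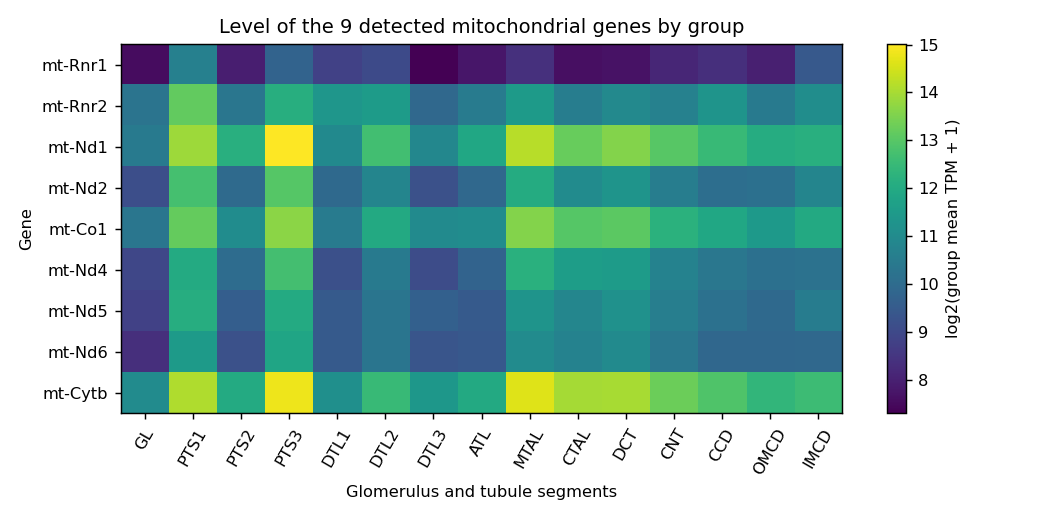
Level of the 9 mitochondrial genes with values, as log2 of the group mean TPM plus 1 (colour), in genome order (vertical axis) and by group (horizontal axis). PTS1, PTS3 and MTAL are bright for the messenger RNAs, PTS2 is dark between PTS1 and PTS3, and mt-Rnr1 is brightest in PTS1.

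The balance among the respiratory complexes also differed between segments, but less than the total. Complex I genes made up 57.1% ± 1.76 of mitochondrial messenger TPM in PTS3 and 55.8% ± 2.62 in PTS2, but 42.9% ± 1.33 in CTAL and 45.9% ± 1.48 in MTAL. Complex III, here mt-Cytb alone, went from 26% ± 0.853 in DTL1 to 38% ± 1.81 in CTAL. Complex IV, here mt-Co1 alone, went from 13.5% ± 0.728 in PTS3 to 22.1% ± 0.873 in DTL3. Groups held 88.1%, 88.8% and 73.5% of the variance of these 3 shares (permutation tests, each p = 1e-05, the smallest possible). Because mt-Co2, mt-Co3 and the complex V genes are listed at 0, these are shares among the 7 protein genes with values.

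Some ratios between members held in each group and others did not. mt-Rnr2 was above mt-Rnr1 in all 53 mice, with a ratio from 3.34 ± 0.869 in IMCD to 9.7 ± 0.515 in DCT. mt-Nd1 exceeded mt-Cytb in 10 of 53 mice: all 3 of PTS3 (ratio 1.16 ± 0.0885), all 3 of DTL2 (1.14 ± 0.0559) and 4 of the 5 of PTS2 (1.13 ± 0.165). The lowest ratio was in CTAL, 0.594 ± 0.0627. mt-Nd2 to mt-Cytb ran from 0.128 ± 0.00867 in CTAL to 0.427 ± 0.0261 in DTL1, and the mice of CTAL (0.117 to 0.138) did not overlap those of DTL1 (0.401 to 0.454).

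mt-Nd6 (chrM:13552-14070) is the only protein gene on the minus strand and encodes a membrane subunit of complex I. It had the lowest mean level of the protein genes with values, 1382 TPM, and overlaps the end of mt-Nd5 (chrM:11742-13565, plus strand) by 14 bases. The last 30 bases of each gene, read on its own strand, are shown with the overlap in capitals.
mt-Nd5: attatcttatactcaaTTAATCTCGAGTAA
mt-Nd6: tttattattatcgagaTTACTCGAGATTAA

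The library kit does not keep the strand, so reads from mt-Nd6 and from the opposite strand of its locus, including any precursor that runs past mt-Nd5, cannot be told apart. As listed, mt-Nd6 made up 2.93% ± 0.152 of mitochondrial messenger TPM in MTAL and 8.28% ± 0.719 in DTL1, and groups held 81.5% of the variance (permutation test, p = 1e-05, the smallest possible). It measured 801, 492 and 878 TPM in DTL1, 2388, 1406 and 2406 TPM in MTAL and 343, 334 and 293 TPM in GL. The ratio of mt-Nd6 to mt-Nd5 had a mean of 0.854 ± 0.13 over the 53 mice and exceeded 1 in 6 of them; group means ran from 0.627 ± 0.0592 in IMCD to 1.04 ± 0.181 in DTL1.

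Set against each other as classes, the thick ascending limb with DCT exceeded the thin limbs in 7 of 9 members, all protein genes, where 3.56% of all genes were called higher in the thick limb and DCT. The median of the 9 was 1.57 and that of all genes -0.71, and 4 members were called after quantile normalization. With ATL mice 2 and 3 alone, 7 were called. Leukocyte markers summed to 203 to 887 TPM over MTAL, CTAL and DCT and to 5.95 to 275 over the thin limbs, and endothelial markers to 152 to 433 and 149 to 3652; their part in the result was not tested. mt-Cytb differed by 2.48 ± 0.14 (limma, adjusted p = 3.93e-20), and mt-Rnr1 and mt-Rnr2 by -0.19 ± 0.21 and 0.28 ± 0.18, which did not pass. Between the proximal segments and the thick limb with DCT, 1 member was called, mt-Rnr1, which was higher in the proximal segments (4.84% of all genes were) by 1.55 ± 0.23 (limma, adjusted p = 9.34e-08). The proximal average mixes PTS2 with 2 segments of far higher levels. Over PTS1, PTS2 and PTS3 leukocyte markers summed to 11.7 to 92.9 TPM, against 203 to 887 over MTAL, CTAL and DCT. Endothelial markers summed to 26.9 to 132 and 152 to 433 TPM in the same order. The part of these markers in the result was not tested. Outer medullary segments (PTS3, DTL1, DTL2, MTAL and OMCD) exceeded inner medullary ones (DTL3, ATL and IMCD) in 6 members (4.32% of all genes were higher there), and in 2 after quantile normalization and 9 with ATL mice 2 and 3 alone; the largest difference was that of mt-Nd1, 1.40 ± 0.14 (limma, adjusted p = 8.11e-12). The call of mt-Rnr2 was lost without ATL mouse 2 (0.95) or mouse 3 (0.98), and that of mt-Nd6 without ATL mouse 2 (0.97). Leukocyte markers summed to 30.3 to 552 TPM over the outer segments. In DTL3 they summed to 11.2 to 16.5, in ATL to 5.95 to 275 and in IMCD to 4.78 to 5.04. The intercalated markers summed to 1754 to 2413 TPM in OMCD and to at most 3.96 in the inner segments. The part of these markers in the result was not tested.

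All 9 members differed among the 15 groups by limma's moderated F-test, but so did 93.9% of all genes, so this count says little about the members.

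Further lists of nuclear genes give the setting: the machinery of mitochondrial DNA upkeep, transcription and RNA processing with its regulators (64 genes), the subunits named above and the 78 proteins of the mitochondrial ribosome. Markers of other cells differed in the class comparisons as given above, and their part in the counts of these lists was not tested. Of the nuclear subunit genes, 13 of 77 were called between the proximal segments and the thick limb with DCT. In the proximal segments 12 of them were lower, where 11.6% of all genes were called lower. Among these 12 were Cox7a1 (-2.89 ± 0.20, limma, adjusted p = 6.32e-17) and Cox7b (-1.51 ± 0.07, adjusted p = 1.36e-22), both complex IV subunits. Cox7a1 was low in PTS2 (18.9 ± 4.9 TPM) and PTS3 (7 ± 4.09) but not in PTS1 (265 ± 32.9). It was at 426 ± 89 TPM in MTAL, 138 ± 30.8 in CTAL and 225 ± 13.6 in DCT. The 1 higher gene was Cox6a2, also of complex IV (1.66 ± 0.07, limma, adjusted p = 1.95e-24). Of the mitochondrial ribosome, 5 of 78 were called, all lower in the proximal segments, led by Mrps6 (-4.11 ± 0.09), which overlaps another gene in the annotation and is uncertain, and Mrps25 (-1.84 ± 0.10). Of the 64 machinery genes, 14 were called in this comparison, 13 of them lower in the proximal segments, against the same 11.6% of all genes. Ppargc1a, a coactivator of genes for mitochondria, was lower by 3.98 ± 0.12 on the log2 scale (limma, adjusted p = 1.06e-30): it was at 50.3 ± 8.29 TPM in PTS1, 12.7 ± 1.88 in PTS2 and 1.69 ± 1.11 in PTS3, against 266 ± 42.7 in MTAL. PTS3 thus had the highest mitochondrial share of all groups and the lowest mean Ppargc1a. Esrrb, an estrogen-related receptor, was at 19.4 ± 3.06 TPM in MTAL and at 0 in PTS3. Top1mt, the mitochondrial topoisomerase, was the 1 machinery gene higher in the proximal segments, by 1.43 ± 0.16 (adjusted p = 1.34e-10); its highest level was in GL, 120 ± 15.5 TPM.

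Between the thick limb with DCT and the thin limbs, 60 of 77 nuclear subunit genes were called higher in the former and none in the latter, with a median of 1.47. Uqcrfs1, the iron-sulfur subunit of complex III, differed by 2.42 ± 0.07 (limma, adjusted p = 1.78e-31), and Atp5g1, a subunit of the rotor of complex V, by 2.40 ± 0.08 (adjusted p = 1.95e-27). Of the machinery genes 7 were higher and 3 lower, where 3.56% and 32.7% of all genes were, and of the mitochondrial ribosome 7 were higher, with medians of 0.31 and 0.39. Ppargc1b, a relative of Ppargc1a, was higher by 2.87 ± 0.16 (adjusted p = 8.15e-20), and Nrf1, a transcription factor of mitochondrial genes, was lower (-1.37 ± 0.14, adjusted p = 6.60e-12), as was Pprc1, another relative of Ppargc1a (-1.12 ± 0.14). Of the mitochondrial ribosome, Mrpl42 was higher by 1.76 ± 0.07 (adjusted p = 2.70e-24) and Mrpl34 followed it in size (adjusted p = 1.38e-16). The median of all genes in this comparison was -0.71.

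Between outer and inner medulla, 43 of 77 nuclear subunit genes were called, all higher in the outer medulla, with 5 machinery genes higher and, of the mitochondrial ribosome, 1 higher and 1 lower; of all genes 4.32% were higher and 3.68% lower. Of the machinery, Esrrg, an estrogen-related receptor, was higher by 2.22 ± 0.15 (limma, adjusted p = 8.30e-17), and of the ribosome Mrpl12 was higher by 1.07 ± 0.07 and Mrps6 lower (-1.03 ± 0.08). Cox7a1, an isoform of a small complex IV subunit known from muscle, was higher by 2.43 ± 0.19 (limma, adjusted p = 4.49e-15); it was at 1531 ± 93.2 TPM in DTL2 and 7 ± 4.09 TPM in PTS3. Cox6a2, the muscle isoform of another complex IV subunit, was at 32.1 ± 10.7 TPM in PTS1 and below 0.1 TPM on average in all other groups. In PTS1 against PTS2, 2 of 78 genes of the mitochondrial ribosome were called, both higher in PTS1, and 5 of 64 machinery genes, 2 higher in PTS1 and 3 in PTS2, where 4.46% of all genes were higher in PTS1 and 5.1% in PTS2. In PTS2 against PTS3, 5 machinery genes were called, all higher in PTS2 (3.94% of all genes were), as were 2 nuclear subunit genes.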

How the data were processed

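Polyadenylated RNA of microdissected tubule segments and glomeruli was reverse transcribed and amplified with an ultra-low-input kit (SMARTer V4) and sequenced as Nextera XT libraries, per the labels' protocols. The authors deposited 1 table of TPM values, scaled for length and to a fixed column total; STAR 2.5.4a and RSEM 1.3.0 are named in the submitters' processing notes, and the genome build and annotation are not given in the sources used here. The 14 columns of the authors' segment means and the 3 single-cell samples were not used. Read counts, and so depth and counting error, cannot be had from TPM.

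Pieces of 1 mouse and segment were averaged, linearly for levels and shares and on the log scale for tests, giving 53 mice. The column of 1 PTS2 mouse matches no sample title exactly; it was used as an unnumbered mouse of that group. Gene tests used limma 3.58.1 (R 4.3.3) on log2(TPM + 1) over 33793 genes at 1 TPM or more in at least 3 mice, with 1 spread estimate over the 15 groups and Benjamini-Hochberg adjustment over all genes; differences on this scale understate those of low genes. The fit was tested on simulated data. Shares were compared by permutation over mice (scipy 1.17.1). The mouse number does not pair groups: the 53 combinations of number and group equal the number of mice the submitters state. Deviations from group means had a mean correlation of 0.002 for equal numbers and -0.001 for other numbers, which alone cannot settle this. P-values measure the spread between mice.

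Sequences were read from GENCODE M21, which matched 54409 identifiers; this may not be the annotation the authors used. Named in full were both ribosomal RNAs, the protein genes with the highest and the lowest mean (the latter mt-Nd6) and the 2 with the largest range; of other lists, the genes with the largest differences in class comparisons. The members, lists and tests were chosen with earlier results of these data known. Alternatives were other pseudocounts (0.1 and 5), no filter or 5 TPM, median ratio rescaling (8230 genes), quantile normalization, rescaling over nuclear genes, averaging before the log, the mouse number as a block, ATL mice 2 and 3 alone, and each mouse left out; for shares also protein members only, protein-coding genes as the total, medians over pieces and nuclear copies added.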

Additional observations from a re-analysis of the deposited data

Results flagged for a closer look

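Of 75 sets of values in groups of 4 or 5 mice that were checked for a mouse far from the others, 5 had a mouse past Dixon's 95% limit, a limit that chance alone passes in about 1 in 20 sets. In OMCD, mouse 1 had a mitochondrial share of 1.72% where the others had 1.85% to 1.87%, and 4787 TPM of mt-Cytb where the others had 5410 to 5459. Its receptor genes summed to 852 TPM, the highest of the 4 OMCD mice. In PTS2, mouse 3 had a complex I share of mitochondrial messenger TPM of 51.2%, against 56.6% to 57.3% in the others. In CTAL, mouse 1 had a complex IV share of 21%, against 18.1% to 18.9%. In CCD, mouse 5 had 1193 TPM of mt-Nd2, against 1052 to 1090. The reasons were not tested.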

How the results depend on the processing

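The test of each of the 6 shares among groups kept its side of the threshold in all 26 tests under other settings and all 318 with 1 mouse left out. All 6 had the smallest p the permutations can give, so this count says little about how stable the shares are. Of 740 differences of called members in other settings, 723 stayed called, 17 did not and none changed sign; with 1 mouse left out, 3909 of 3922 stayed called. Counts of members moved by over 1.5 times in 13 of 190 counts under other settings and 7 of 1007 with 1 mouse left out. In both totals with 1 mouse left out, most of the mice belonged to groups outside the comparison, where the difference itself cannot change. These totals therefore say little about how stable the calls are. Of 216 group means of shares under other settings 13 moved, all of them means of the mitochondrial share of all TPM. With 1 mouse left out, 0 of 318 moved. With protein members only, DTL1 went from 1.18% to 0.873% and DTL3 from 1.03% to 0.918%, which exchanged their order. After quantile normalization, 4 members were called for PTS3 minus DTL2, 0 for MTAL minus CTAL and for OMCD minus IMCD, 4 for the thick limb and DCT minus the thin limbs and 2 for outer minus inner medulla. After median ratio rescaling, 1 was called for DTL3 minus ATL, 2 for MTAL minus CTAL, 3 for DCT minus CNT and 2 for proximal minus thick limb and DCT. With no filter, 0 were called for OMCD minus IMCD; there more genes share the adjustment. With ATL mice 2 and 3 alone, 3 were called for DTL3 minus ATL and 5 for DTL1 minus ATL, and the share of all TPM reversed to 0.162 percentage points for DTL3 minus ATL and 0.312 for DTL1 minus ATL. With 1 mouse left out, counts ran from 0 to 1 for DTL3 minus ATL, from 0 to 2 for MTAL minus CTAL and from 0 to 1 for OMCD minus IMCD. For DTL1 minus ATL the count fell to 1 without ATL mouse 3. In that comparison mt-Nd1, which was higher in ATL, was called in 3 of all 63 alternatives. With 1 mouse left out, the rRNA share for DTL3 minus ATL ran from -0.275 (without ATL mouse 3) to 2.02, and the mitochondrial share for DTL1 minus ATL from -0.575 to 0.13 (without ATL mouse 4). With the mouse number as a replicate block, 2 members were called for MTAL minus CTAL, and no other count of members changed. Deviations of equal numbers correlated between -0.22 and 0.282 over 290 pairs, and those of other numbers between -0.283 and 0.26 over 1016 pairs. These ranges cannot by themselves tell whether equal numbers are the same mouse. Except where stated, the cause of these changes was not tested. Shares of transfer RNAs and complex V have no alternative values, being listed at 0, and depth is not given by TPM. Groups of 3 mice share the estimate of spread with all others.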
